A study of Rattus norvegicus with 6 samples.

Results

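The proximal miRNAs of the imprinted Dlk1-Dio3 domain were followed in cultured rat sertoli cells with and without 4-nonylphenol (4-NP). The group was taken by name and holds 10 miRNA genes, rno-miR-127, rno-miR-434, rno-miR-3543, rno-miR-433, rno-miR-431, rno-miR-136, rno-miR-337, rno-miR-493, rno-miR-540 and rno-miR-665. Every mature miRNA with one of these names was included, which gave 17 of the 734 mature miRNAs in the count table. As miR-434-3p and miR-3543 come from opposite strands of the same site, their reads were added together, which left 16 measured rows. All 16 had enough reads to be tested. Of the 734 mature miRNAs, 673 were known and 61 were predicted. Predicted miRNAs that passed the filter count in the shares over all tested miRNAs below.

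Sertoli cells are the somatic cells of the seminiferous tubule that nourish germ cells, and 4-NP is an alkylphenol with estrogen-like action. The cells were primary cultures from the testes of Sprague-Dawley rats 5 to 10 days old, enriched by enzymatic digestion and not sorted. Small RNA of 3 control samples, cultured without 4-NP, and of 3 samples kept with 0.5 mM 4-NP was sequenced at 24 h. The labels do not say whether the samples of a group came from separate cultures or animals, so the p values below measure only the spread between these samples, which may be technical. No genetic change was made in any sample. In a bulk sample, fewer cells of a type and less RNA per cell cannot be told apart.

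The Dlk1-Dio3 domain is expressed according to parental origin. The paternal allele produces the protein-coding genes Dlk1, Rtl1 and Dio3, and the maternal allele produces the long non-coding RNAs Meg3, the Rtl1 antisense RNA, Rian and Mirg, which are hosts to many miRNAs. miRNAs made from the Rtl1 antisense RNA match the Rtl1 mRNA without mismatches and direct its cleavage, and loss of miR-127 in mice disturbs the fetal vessels of the placenta. In the RefSeq annotation of GRCr8 the hairpins follow each other in the order miR-493, miR-337, miR-540, miR-665, miR-431, miR-433, miR-127, miR-434 with miR-3543 opposite to it, and miR-136. Of the 10 hairpins, 6 lie within the bounds of Rtl1, from miR-431 to miR-136, and the other 4 lie on the side of Meg3. The genome build behind the deposited counts is not given in the sources used here, so positions below locate the RefSeq sequences in GRCr8 and not the counted reads.

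Sequences are shown for the most abundant member, for the members with an adjusted p under 0.05 and for the overlapping pair. The other arm is shown for the hairpins whose arm shares did not overlap between the groups. They are RefSeq mature sequences from GRCr8, written 5′ to 3′, with the seed (bases 2 to 8) in capitals.
rno-miR-127-3p (chr6:134328510-134328531, + strand): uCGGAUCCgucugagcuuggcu
rno-miR-665 (chr6:134321733-134321754, + strand): aCCAGGAGgcugaggucccuua
rno-miR-540-3p (chr6:134321475-134321496, + strand): aGGUCAGAggucgauccugggc
rno-miR-540-5p (chr6:134321438-134321460, + strand): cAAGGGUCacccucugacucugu
rno-miR-337-3p (chr6:134321201-134321223, + strand): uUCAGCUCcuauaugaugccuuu
rno-miR-337-5p (chr6:134321170-134321190, + strand): cGGCGUCAugcaggaguugau
rno-miR-433-3p (chr6:134327421-134327442, + strand): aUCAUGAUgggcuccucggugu
rno-miR-434-3p (chr6:134330451-134330472, + strand): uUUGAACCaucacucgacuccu
rno-miR-3543 (chr6:134330451-134330473, - strand): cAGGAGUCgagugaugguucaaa

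A RefSeq sequence was found for 15 of the 17 mature members, all but miR-127-5p and miR-136-5p. The members are not a family by sequence. None of the 15 shared its seed with another member or with any other of the 606 counted miRNAs that had a RefSeq sequence. The closeness of the pair at the end of the list is of another kind. All 22 bases of miR-434-3p are contained in the reverse complement of miR-3543, which is 23 bases long, so each is the antisense of the other.

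The samples held 20023200 to 23426742 reads on mature miRNAs, of which miR-21-5p took 62.0 to 63.9%. Levels are given as reads per 1000000 mature miRNA reads of the sample (CPM), and 3 reads corresponded to 0.128 to 0.150 CPM, which covers counting error only. Comparisons used edgeR's quasi-likelihood test across all 548 tested miRNAs with Benjamini-Hochberg adjustment. Fold changes are 4-NP over control, with standard errors (SE), and come from that fit with its TMM factors, whereas the CPM values are scaled to mature reads alone.

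miR-127-3p dominated the group. It took 89.2 to 91.3% of the members' reads in each sample. Together the members made up 10341, 12631 and 13118 CPM in control samples 1, 2 and 3 and 10602, 9466 and 9824 CPM in 4-NP samples 1, 2 and 3. The groups overlapped, since control sample 1 lay below 4-NP sample 1, and the ratio of the means was 0.828. Without miR-127-3p the other 15 rows summed to 1118, 1188 and 1139 CPM in the controls and to 1044, 978 and 880 CPM with 4-NP, a ratio of 0.842 without overlap.

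Below miR-127-3p, with 10882 ± 1461 CPM in the controls (SD, n = 3), the order of control levels fell in steps. The summed miR-434-3p and miR-3543 had 362 ± 57.3 CPM and miR-431 had 297 ± 23.4 CPM (SD, n = 3 each), and the samples of these neighbours overlapped. They were followed by miR-136-5p at 132 ± 23.6 CPM and miR-136-3p at 98.9 ± 12.5 CPM (SD, n = 3 each), which did not overlap. miR-337-5p, at 79.5 ± 7.16 CPM, and miR-434-5p, at 74.9 ± 2.64 CPM (SD, n = 3 each), could not be ordered. Then came miR-493-3p at 39.4 ± 6.48 CPM and miR-433-3p at 22.0 ± 0.991 CPM (SD, n = 3 each). The remaining 7 rows lay between 3.81 CPM for miR-540-5p and 8.53 CPM for miR-337-3p on average, and neighbours among them overlapped except miR-665 and miR-433-5p. Reads of different miRNAs are shares of sequenced fragments and were not calibrated to molecules.

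**Figure D1:**
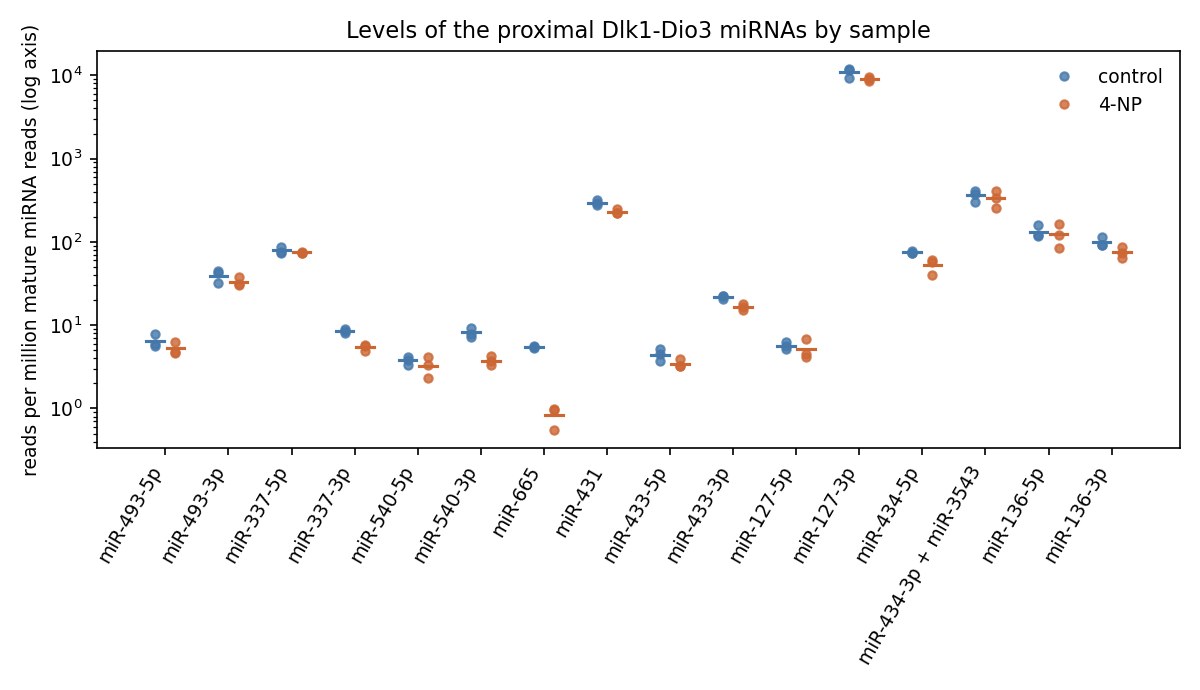
Level of each row in each sample, in CPM on a log axis, with rows in the order of their hairpins in GRCr8. Points are the 3 control samples and the 3 4-NP samples, and lines are group means. miR-127-3p lies above all other rows in every sample, and miR-665 shows the widest gap between the groups, from 5.38 to 5.63 CPM in the controls and from 0.548 to 0.994 CPM with 4-NP.

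With 4-NP, 4 of the 16 rows were lower at an adjusted p under 0.05 and none was higher. These were miR-665, miR-540-3p, miR-337-3p and miR-433-3p. The 4 rows are 25.0% of the group, beside 12.8% lower and 7.66% higher among all 548 tested miRNAs. For 2 rows, miR-665 and miR-540-3p, the fold change was also under 0.5 with an unadjusted p under 0.05, or 12.5% of the group beside 9.67% of all. The fitted log2 fold change was negative for all 16 rows, with a median of -0.33, while it was negative for 50.4% of all tested miRNAs, whose median was 0.00 (-0.00415). In 7 rows each 4-NP sample lay below each control sample, or 43.8%, beside 22.4% of all tested miRNAs. The count of 4 fell to 2 when control replicate 1, control replicate 2, 4-NP replicate 1 or 4-NP replicate 2 was left out. There 2 of 16 rows, or 12.5%, stood beside 51 of 561, 57 of 559, 60 of 567 and 56 of 566 tested miRNAs lower, in that order. miR-665 and miR-540-3p kept their calls in each of these fits.

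**Figure D2:**
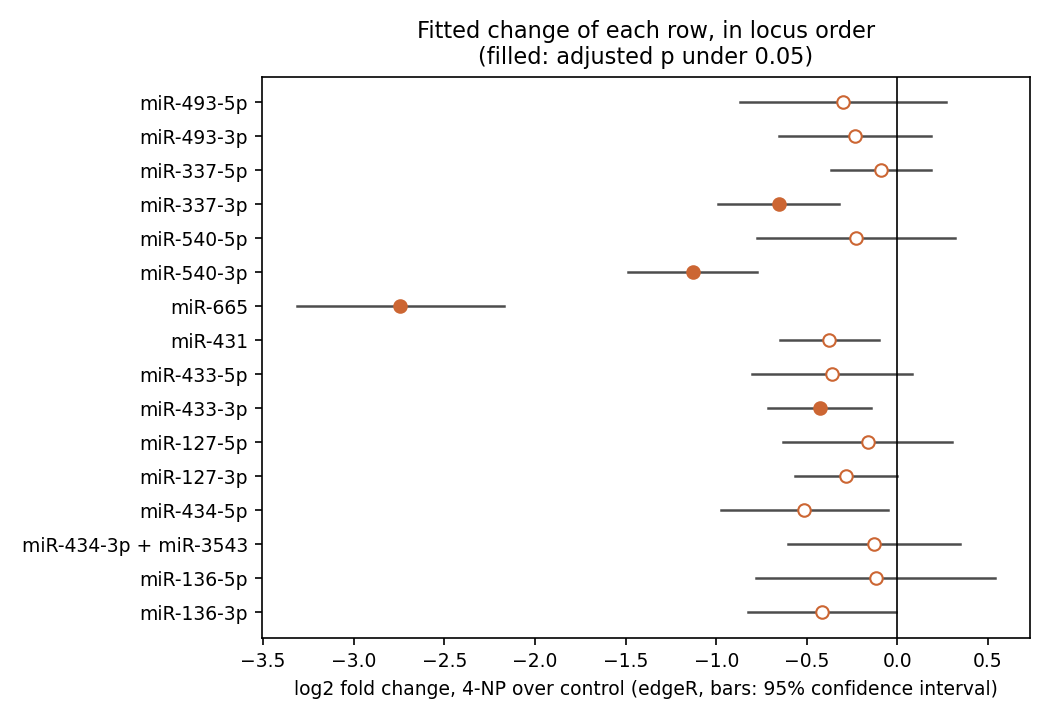
Fitted log2 fold change of each row, 4-NP over control, with a 95% confidence interval derived from the edgeR F test. Filled points have an adjusted p under 0.05, and the vertical line marks no change. All 16 points lie left of the line, from -0.09 for miR-337-5p to -2.74 for miR-665.

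miR-665 showed the largest difference in the group. Its reads were 132, 127 and 120 in control samples 1, 2 and 3 and 22, 19 and 12 in 4-NP samples 1, 2 and 3. In CPM, 5.51 ± 0.126 in the controls stood against 0.830 ± 0.246 with 4-NP (SD, n = 3 each). All treated samples were far below all controls. The log2 fold change was -2.74 (SE 0.24, adjusted p = 0.000451 in edgeR), and it ran from -2.86 to -2.54 over the 14 alternatives, with an adjusted p of at most 0.00904.

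The hairpin next to it, miR-540, gave different values for its arms. Counts on miR-540-3p were 184, 216 and 163 in the controls and 82, 85 and 72 with 4-NP. It fell from 8.17 ± 1.06 to 3.75 ± 0.480 CPM (SD, n = 3 each) without overlap, a log2 fold change of -1.13 (SE 0.15, adjusted p = 0.0028 in edgeR). This call held under all 14 alternatives. Counts on miR-540-5p were 79, 97 and 86 in the controls and 91, 47 and 73 with 4-NP. Its groups overlapped, and its log2 fold change was -0.23 (95% interval -0.77 to 0.32, adjusted p = 0.519 in edgeR).

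miR-337 showed the same kind of contrast at a smaller size. Reads on miR-337-3p were 199, 206 and 182 in the controls and 125, 99 and 125 with 4-NP, and its level went from 8.53 ± 0.378 to 5.43 ± 0.425 CPM (SD, n = 3 each) without overlap. The log2 fold change was -0.66 (SE 0.14, adjusted p = 0.0192 in edgeR). The call was lost, with adjusted p values of 0.0505 to 0.0667 in edgeR, without control replicate 1 or 2 and without 4-NP replicate 1 or 2. miR-337-5p, the abundant arm, had 79.5 ± 7.16 CPM in the controls and 74.8 ± 1.38 CPM with 4-NP (SD, n = 3 each). Its log2 fold change of -0.09 had a 95% interval of -0.37 to 0.19 (adjusted p = 0.627 in edgeR).

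The remaining hairpin on the side of Meg3 is miR-493. miR-493-3p had 41.9, 44.2 and 32.0 CPM in the controls and 30.5, 31.3 and 38.4 CPM with 4-NP, and its groups overlapped. The log2 fold change was -0.23 (adjusted p = 0.378) for miR-493-3p and -0.30 (adjusted p = 0.396) for miR-493-5p in edgeR.

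Among the hairpins inside Rtl1, miR-433-3p passed the threshold narrowly. Its reads were 531, 519 and 465 in the controls and 399, 328 and 329 with 4-NP, and its level went from 22.0 ± 0.991 to 16.5 ± 1.50 CPM (SD, n = 3 each). The groups did not overlap. Its log2 fold change of -0.43 (SE 0.12, adjusted p = 0.0454 in edgeR) lost the call in all 6 fits without a sample, with an adjusted p of 0.0508 to 0.139, and was called in 4 of the 14 alternatives. miR-433-5p had a log2 fold change of -0.36 (adjusted p = 0.212 in edgeR) with overlapping groups.

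miR-431, known for its part in the differentiation of muscle stem cells, lay just past the threshold on the other side. Its levels were 294, 322 and 275 CPM in the controls and 248, 222 and 221 CPM with 4-NP, without overlap. The log2 fold change was -0.38 (SE 0.11, adjusted p = 0.0642 in edgeR), and the call was made with DESeq2 (adjusted p = 0.00624) and with at least 10 reads in every sample (adjusted p = 0.0352 in edgeR).

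For the most abundant member, miR-127-3p, the difference did not pass the adjusted threshold. It had 9223, 11443 and 11979 CPM in the controls and 9558, 8488 and 8944 CPM with 4-NP. Control sample 1 lay below 4-NP sample 1, and the other 2 controls lay above all treated samples. The log2 fold change was -0.28 (95% interval -0.56 to 0.00 (-0.00285), adjusted p = 0.135 in edgeR), and the adjusted p stayed between 0.0727 and 0.326 over the 14 alternatives. miR-127-5p, the rare arm of the same hairpin, was read 121, 146 and 125 times in the controls and 149, 91 and 90 times with 4-NP, with a log2 fold change of -0.16 (adjusted p = 0.598 in edgeR).

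miR-136 ends the row of hairpins. miR-136-3p had 113, 92.5 and 91.0 CPM in the controls and 86.8, 74.3 and 64.4 CPM with 4-NP, without overlap, and a log2 fold change of -0.42 (adjusted p = 0.132 in edgeR). miR-136-5p had 159, 118 and 120 CPM in the controls and 165, 84.8 and 121 CPM with 4-NP. These groups overlapped, and the fitted value of -0.12 (adjusted p = 0.786 in edgeR) turned to 0.07 without control replicate 1 and to 0.10 without 4-NP replicate 2.

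The rows of miR-434-3p and miR-3543 had fold changes of opposite sign, and neither passed the adjusted threshold. On miR-434-3p the table counts 5609, 2006 and 7324 reads in the controls and 43, 446 and 1118 with 4-NP. On miR-3543, the antisense sequence printed beside it above, it counts 1372, 6748 and 1788 reads in the controls and 7367, 7738 and 4542 with 4-NP. miR-3543 thus held 19.7, 77.1 and 19.6% of the pair's reads in the controls and 99.4, 94.6 and 80.2% with 4-NP. The division already differed between the controls, where sample 2 was close to the treated samples. Taken as separate rows, miR-434-3p had a log2 fold change of -3.14 (SE 1.12, adjusted p = 0.0977 in edgeR) and miR-3543 one of 1.14 (SE 0.57, adjusted p = 0.203 in edgeR).

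Their sum was 298, 379 and 409 CPM in the controls and 335, 409 and 259 CPM with 4-NP. The groups overlapped widely, and the log2 fold change was -0.13 (95% interval -0.60 to 0.34, adjusted p = 0.692 in edgeR). How the authors' counting divided reads between the strands was not tested. miR-434-5p, which does not share this site, had 73.9, 77.8 and 72.8 CPM in the controls and 57.6, 39.9 and 60.4 CPM with 4-NP. Its groups did not overlap, and its log2 fold change was -0.51 (SE 0.19, adjusted p = 0.108 in edgeR).

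**Figure D3:**
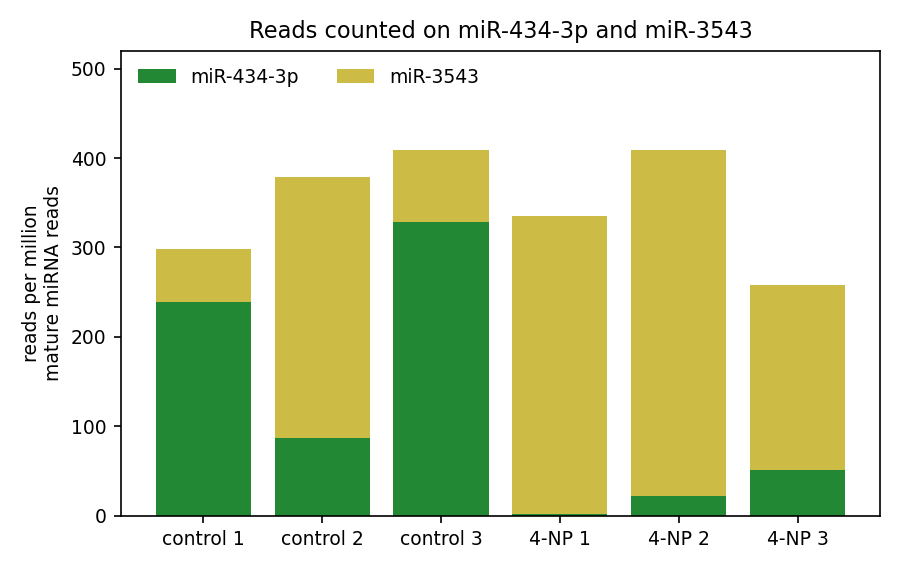
Reads counted on miR-434-3p and on miR-3543 in each sample, stacked, in CPM. The division between the names differs from sample to sample, with miR-3543 at 19.6 to 77.1% of the pair in the controls and 80.2 to 99.4% with 4-NP, while the stacked totals of the groups overlap.

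The balance of the arms within a hairpin does not depend on the scaling of the libraries. It could be measured for 7 of the hairpins, those with both arms named and at least 20 reads in every sample, as the share of the 5p arm. The 5p share of miR-540 was 30.0, 31.0 and 34.5% in the controls and 52.6, 35.6 and 50.3% with 4-NP. The groups did not overlap, although 4-NP sample 2 lay close to control sample 3, and the difference of the means was 14.3 percentage points. For miR-337 the share was 89.8, 90.8 and 90.3% in the controls and 92.9, 93.9 and 92.9% with 4-NP, a difference of 2.94 percentage points without overlap.

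In both hairpins the exact permutation test gave a two-sided p = 0.1, the smallest that 3 samples against 3 allow, and an adjusted p of 0.35 over the 7 hairpins. The other 5 hairpins overlapped between the groups. The 5p share was without overlap in 2 of 7 member hairpins, near the share of all hairpins, 57 of 206 or 27.7% in either direction. Both member hairpins were higher in the 5p arm, beside 15.5% of all. The least even hairpin was miR-127, in which the 5p arm held 0.0459 to 0.0704% of the reads. miR-136 was close to even, with a 5p share of 53.3 to 65.6%.

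**Figure D4:**
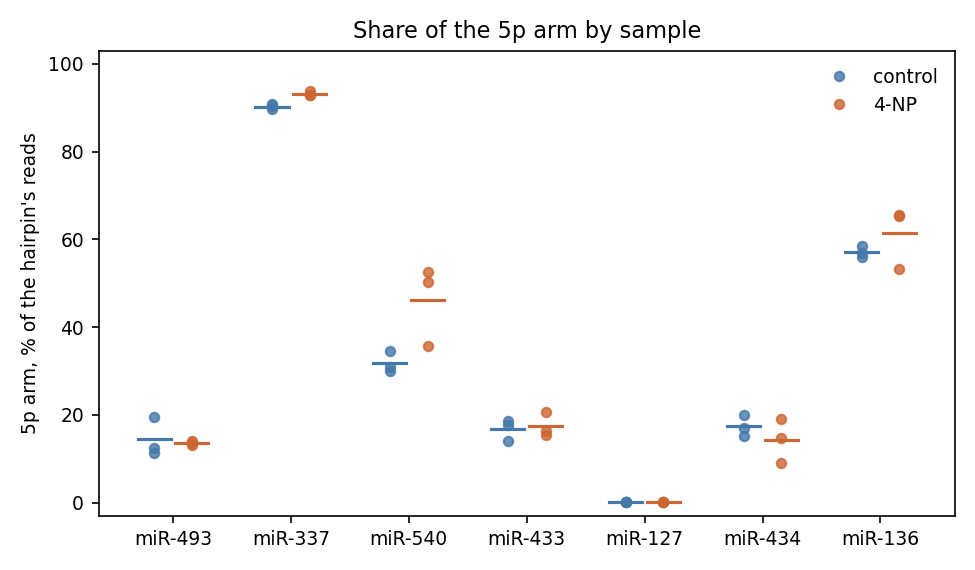
Share of the 5p arm among the reads of each hairpin, in percent, for the 3 control and the 3 4-NP samples, with lines at the group means. Reads of miR-3543 were added to the 3p arm of miR-434. The groups are apart for miR-540, at 30.0 to 34.5% and 35.6 to 52.6%, and for miR-337, and they overlap for the other 5 hairpins.

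To set the low rows other than miR-433-3p against the rest of the group without library scaling, their reads were divided by those of the other members except miR-127-3p. These rows were chosen because their levels were already seen to be lower, so the ratios are a description and no p value is drawn on. Per 1000 such reads miR-665 had 5.06, 4.65 and 4.75 in the controls and 0.953, 0.971 and 0.623 with 4-NP. miR-540-3p had 7.16 ± 0.740 in the controls and 3.89 ± 0.417 with 4-NP, and miR-337-3p had 7.48 ± 0.230 and 5.68 ± 0.755 (SD, n = 3 each).

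Other miRNAs of the same domain were read from lists made by name. Of the other proximal miRNAs, miR-370, miR-341, miR-673 and miR-770 had 7 rows, of which 4 were tested. All 4 were lower in each 4-NP sample than in each control, beside 22.4% of all 548 tested miRNAs. miR-341, the most abundant, had 1104, 1197 and 1036 CPM in the controls and 771, 681 and 738 CPM with 4-NP, with a log2 fold change of -0.61 (SE 0.11, adjusted p = 0.00928 in edgeR). It was -1.74 for miR-370-3p (adjusted p = 0.00155), -1.24 for miR-673-5p (adjusted p = 0.0291) and -1.21 for miR-673-3p (adjusted p = 0.0804). miR-370-5p, miR-770-3p and miR-770-5p had at most 15 reads in any sample and were not tested.

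The distal miRNAs of the domain, from miR-379 to miR-410, had 68 rows. Of the 56 tested, 13 were lower and none was higher at an adjusted p under 0.05. Among all 548 tested miRNAs 12.8% were lower and 7.66% higher. The median log2 fold change of the distal rows was -0.39, beside -0.33 for the proximal members. The fitted value was negative for 44 of the 56 distal rows, beside 50.4% of all tested miRNAs. In 23 of the 56 each 4-NP sample lay below each control sample, beside 22.4% of all, and in 1 each lay above. The lowest fitted values in the distal list were -2.54 for miR-154-3p (adjusted p = 0.000191 in edgeR), -2.48 for miR-543-3p (adjusted p = 0.00266) and -1.74 for miR-382-3p (adjusted p = 0.307). The highest were 0.61 for miR-539-5p (adjusted p = 0.775), 0.57 for miR-412-5p (adjusted p = 0.0757) and 0.57 for miR-667-3p (adjusted p = 0.224). The distal rows summed to 13498, 15619 and 15396 CPM in the controls and 12530, 12809 and 13861 CPM with 4-NP. These groups overlapped, as those of the proximal sum did.

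The miRNAs most like the summed members across the 6 samples were sought among 338 others with at least 100 reads on average, by the root mean square difference of centred log2(CPM + 1). miR-425-5p came closest at 0.06, followed by miR-674-5p at 0.08, the predicted novel_mir50 at 0.10, miR-140-3p at 0.11 and let-7e-3p at 0.11. The summed members themselves varied with an SD of 0.19 on this scale. None of the 5 belongs to the lists of the domain, and miR-140-3p is on the list of gonadal somatic markers. As miR-127-3p took 89.2 to 91.3% of the members' reads, this likeness is mostly to miR-127-3p.

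Markers of several cell types also differed between the groups, and their part in the values above was not tested. The counts of marker rows below stand beside 12.8% lower and 7.66% higher among all 548 tested miRNAs. The endothelial miR-126a arms (2 of 2 lower at an adjusted p under 0.05) summed to 6325 to 7615 CPM in the controls and 3234 to 3805 CPM with 4-NP, and the miR-143 and miR-145 arms of smooth muscle and myoid cells (2 of 4 lower) to 120596 to 136273 and 88389 to 96697 CPM. Testis and germ line markers (6 of 13 tested lower, 4 higher) summed to 647 to 788 and 237 to 272 CPM. Erythroid markers (1 of 2 tested higher, miR-451-5p) summed to 11.0 to 40.7 and 59.3 to 631 CPM. The sums overlapped for white blood cell markers (18.1 to 22.3 and 17.3 to 36.9 CPM), striated muscle markers (14.4 to 20.0 and 13.4 to 15.4 CPM) and the gonadal somatic miR-202 and miR-140 (1382 to 1897 and 1213 to 1404 CPM). No marker row had 0 reads in every sample. The table holds no mRNA, so the cells could not be checked against protein-coding markers of sertoli cells.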

How the data were processed

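Sertoli cell miRNA-Seq data of 3 control and 3 4-NP samples were analysed. RNA of short length was isolated by gel electrophoresis, and libraries carried molecular identifiers. Read counts for each small RNA were deposited without normalization, and the submitters' notes name HISAT2 and DESeq2 without a role. The miRNA database, genome build and rule for assigning reads are not given in the sources used here. A further 6 columns, named for the molecular identifiers, were not used. Groups and replicate numbers came from the labels.

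Library size was the sum of mature miRNA counts. Rows were filtered with filterByExpr and fitted in R 4.3.3 with edgeR 4.0.16 (quasi-likelihood F test, two-sided, TMM factors of 0.953 to 1.09, common dispersion 0.115, no replicate block). The standard error of a log2 fold change was derived as its absolute value divided by the square root of its F value. Intervals are at 95% and were derived from this error and the t distribution. DESeq2 1.42.0, other scalings and filters, a replicate block, separate rows for miR-434-3p and miR-3543 and the omission of each sample were alternatives. Arm shares were compared by exact permutation in SciPy 1.17.1. The fit was tested on simulated counts with a lower dispersion than these data. That test does not show its error rate at the spread of these samples. Replicates of a group differed beyond counting error (chi-square divided by its degrees of freedom, 154 to 942).

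All members were described. Beside them, the text names the counted miRNAs of the other proximal list, the 3 lowest and 3 highest of the distal list, and the 5 miRNAs closest to the summed members. Of the markers, miR-126a, miR-143, miR-145, miR-202 and miR-140 are named for their lists. After the values were seen, 1 further marker was named, miR-451-5p. Members and lists were chosen with earlier results of these data known. Of the list names, 3 of the 7 other proximal, 4 of the 41 distal and 1 of the 15 testis markers matched no counted miRNA.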

Additional observations from a re-analysis of the deposited data

How the results depend on the processing

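The number of members lower at an adjusted p under 0.05 was 4, and 2 to 3 when a sample was left out. It was 3 to 5 under the other alternatives. Over all tested miRNAs, 70 of 548 were lower in the main fit and 51 to 67 of 559 to 569 when a sample was left out. With DESeq2, 78 of the 547 miRNAs given an adjusted p were lower. Under the remaining alternatives 57 to 73 of 475 to 733 were lower. The replicate block gave 3 members and lost miR-433-3p (adjusted p = 0.0765 in edgeR), and it changed no other member's call. The labels give no pairing beyond the shared number. The deviations of same-numbered samples from their group means correlated at -0.301, -0.272 and -0.0431 across miRNAs. With 3 samples in each group these deviations constrain each other, so the values cannot decide whether the samples were paired. The ratio of the summed levels was 0.828, and 0.774 to 0.867 when a sample was left out, with the lowest value without control replicate 1. The counts of 2 members past the fold change and p thresholds and of 2 hairpins with separate arm shares each stayed at 2 or 3. Among all tested miRNAs, the count lower past those thresholds ran from 37 of 475 to 70 of 733. Among all hairpins, the count with separate arm shares ran from 56 of 183 to 77 of 207. Of the fitted log2 fold changes, that of miR-136-5p ran from -0.34 to 0.10 when a sample was left out. That of the summed miR-434-3p and miR-3543 ran from -0.29 to 0.00 (0.000807, without 4-NP replicate 3). The cause of these shifts was not tested. The call on miR-433-3p was also lost under scaling to mature reads alone (adjusted p = 0.0669 in edgeR), without miR-21-5p in the library size (0.0907) and without a filter on low counts (0.0785). The value of miR-665 rests on 12 to 22 reads in each 4-NP sample.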

Other observations

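The table also counts reads on miRNA precursor families, and 7 of the 177 families are named for members. The family of mir-431 had 15, 15 and 21 reads in the controls and 0 in every 4-NP sample, and a count of 0 allows up to 3 reads. Of the 89 families with at least 10 reads in every control, it was the only 1 with 0 in every 4-NP sample. The mature miR-431 had 275 to 322 CPM in the controls and 221 to 248 CPM in the same treated samples. The family of mir-127 had 7, 3 and 3 reads in the controls and 3 in each 4-NP sample. The other 5 families named for members had at most 6 reads in any sample. These values were picked out after they were seen, and no test was made of them.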
